A study of Mus musculus with 19 samples.

Results

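The effect of the *Tbp* knock-in that the cerebellum, striatum and prefrontal cortex have in common was measured as the mean of 3 differences, knock-in (KI) minus wild type (WT), one within each region, each region with equal weight. All 19 RNA sequencing libraries of the series entered, 10 from KI and 9 from WT mice, and 16841 of the 41128 genes in the count table had enough counts to be tested. The cerebellum gave 4 KI and 3 WT libraries, and the striatum and prefrontal cortex gave 3 libraries of each genotype. The mice were 3 months old and on the C57BL/6 strain. The KI animals carry a *Tbp* allele with an expanded polyglutamine tract in their germline, obtained by crossing floxed mice with the EIIa-Cre line and the offspring with WT mice, so the allele is present in the cells of every region. WT mice were of the same age and strain, and neither genotype received a treatment. The libraries hold RNA of whole dissected tissue, in which fewer cells of a type and less RNA per cell cannot be told apart.

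TBP, the TATA box-binding protein, is the subunit of TFIID that contacts promoter DNA, and it also serves RNA polymerases I and III. Every cell uses it, while the best known damage in spinocerebellar ataxia type 17 (SCA17) falls on cerebellar Purkinje cells. Type I interferon acts through a cell surface receptor, JAK kinases and a transcription factor complex with IRF9 that binds an element of repeated GAAA units in the promoters of antiviral genes and of genes for antigen presentation by MHC class I.

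Library totals lay between 10639110 and 17431284 counts, with a median of 15082703. The labels name 3 to 4 mice per genotype for all regions, so libraries of different regions can come from the same mouse, and the p-values below treat them as separate. In the striatum and prefrontal cortex, libraries of 1 genotype with the same number varied together, whereas those of the cerebellum did not match them throughout. The main counts are therefore also given with these forebrain pairs treated as repeated measures of 1 animal (the animal block). The animal block was fitted in limma and not in edgeR, so the change of test enters the calls lost with it. By *Xist* and Y-linked transcripts, 4 of 10 KI and 6 of 9 WT libraries came from females, so genotype and sex were not balanced. Same-numbered striatum and prefrontal cortex libraries matched in sex in 6 of 6 pairs, and same-numbered cerebellum and striatum libraries in 3 of 6. Levels are TMM-scaled CPM, the counts of a gene per 1e6 counts of the library. The prefrontal cortex WT library 3 had 171 CPM of *Th*, a gene of dopaminergic cells that olfactory bulb tissue also expresses, against 3.56 and 5.50 in the other WT libraries of that region. *Ttr*, a choroid plexus gene, was 4550 CPM in cerebellum KI library 3 and 1820 CPM in cerebellum WT library 1, against 4.12 to 12.3 CPM in the other cerebellar libraries, and results were also computed without these 3 libraries. All 6 striatum libraries held 1434 to 8275 CPM of *Ttr*, the lowest in WT library 3, and stayed in.

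Averaged over the regions, 141 genes were higher and 87 lower in KI than in WT mice (quasi-likelihood test of edgeR, threshold 0.05 after Benjamini-Hochberg adjustment over all tested genes), which is 0.837% and 0.517% of them. Of the higher genes, 40 were on a list of interferon signalling and effector genes, and the median log2 fold change of the 141 was 1.16. The lower genes had a median of -0.43, or 0.741 times the WT level. The median over all tested genes was -0.00. Of the 228 genes, 115 were also called in at least 1 region taken alone, and 13 of these, all higher, in all 3 regions. The other 113 passed on the average alone, 57 of them higher (0.338% of the tested genes) and 56 lower (0.333%). Taken alone, the cerebellum called 140 genes (0.831%), the striatum 98 (0.582%) and the prefrontal cortex 18 (0.107%), and 79 genes called in a region were not called on the average.

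**Figure D1:**
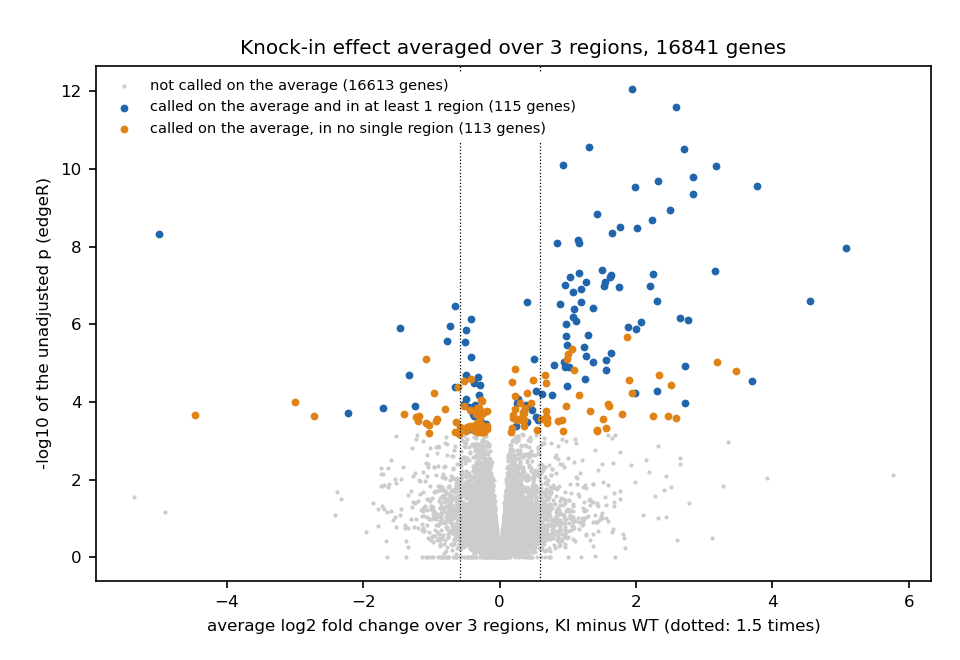
Average log2 fold change over 3 regions (x axis, KI minus WT) against the -log10 of the unadjusted p from edgeR (y axis), with 1 point per tested gene. The 113 genes called on the average and in no single region (orange) lie above the uncalled genes (grey), many of them near the dotted lines at 1.5 times, while most of the 115 genes that a region also called (blue) lie to the right.

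The average had a smaller error than any single region. The median standard error of the log2 fold change was 0.10 for the average, against 0.17 for the cerebellum and 0.18 for either forebrain region. Of the 113 genes called on the average alone, 112 had the same sign in the 3 regions. This agreement follows in part from the selection, since an average that passes with no region called favours values of 1 sign. Of these 112 genes, 56, of which 22 higher and 34 lower, differed by less than 1.5 times. With the animal block, 116 genes were higher and 45 lower in limma, against 129 and 70 in limma without the block, and the genes called on the average alone numbered 39 higher and 15 lower. Of the original 57 higher genes called on the average alone, 37 were called again with the animal block and 26 in each of the 19 fits that left out 1 library. Of the 56 lower genes, 20 were called with the block and 12 in all 19 fits. Of the 113 genes of both directions, limma called 85 without the block and 57 with it. With sex as a covariate, 41 of the 57 higher and 20 of the 56 lower genes were called again. Without the 3 libraries with high *Th* or *Ttr*, 130 genes were higher and 63 lower.

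Every KI library lay above every WT library in each of the 3 regions for 75 genes (0.445% of those tested), of which 72 were called on the average. Every KI library lay below every WT library in each region for 17 genes (0.101%), of which 12 were called. Among the genes called on the average alone, 19 higher and 9 lower genes had this full separation.

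Nearly all interferon effector genes rose. Of 42 tested interferon signalling and effector genes, 40 rose and 0 fell, and limma called 39 with or without the animal block. Their median average log2 fold change was 1.48 beside -0.00 over all tested genes. The values of the other 2, *Irf1* and *Adar*, did not pass. *Irf9*, a DNA-binding factor of the interferon response, had the smallest p of all genes. Its cerebellar level was 47.9, 54.2, 48.6 and 42.1 CPM in KI and 12.0, 8.58 and 8.17 CPM in WT libraries. In the striatum it was 48.2, 46.4 and 60.7 in KI against 14.9, 12.0 and 11.0 in WT, and in the prefrontal cortex 36.5, 26.1 and 37.5 against 11.2, 11.1 and 13.8. The genotypes did not overlap in any region, and the average log2 fold change was 1.94 (standard error 0.103, edgeR adjusted p = 1.53e-08). *Rtp4*, an interferon-induced chaperone of receptors, rose by 2.58 and *Oasl2*, an antiviral gene of the oligoadenylate synthetase family, by 2.70. On a list of 12 interferon receptor and kinase genes, which also holds phosphatase genes, 0 passed in either direction, and the median was -0.02. A list this short cannot be set apart from the share of all tested genes, 0.837% higher and 0.517% lower. The receptor gene *Ifnar2* had a value of 0.12 and the phosphatase gene *Ptpn11* of 0.09.

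Several interferon-related genes passed on the average alone. *Phf11d*, an interferon-inducible gene with a PHD finger, stood at 1.86, 2.88, 2.86 and 2.72 CPM in KI and 0.643, 0.983 and 0.324 CPM in WT cerebellum. Its striatal levels were 2.84, 3.37 and 3.83 in KI and 1.47, 0.446 and 0.927 in WT, and its prefrontal levels 3.21, 2.4 and 4.06 against 0.274, 1.15 and 1.21. All KI libraries were above all WT libraries of their region, and the average log2 fold change was 1.87 (standard error 0.266, edgeR adjusted p = 0.000596). *Trim12c*, a TRIM family gene, rose by 1.06 and *Zc3hav1*, which encodes a zinc finger antiviral protein, by 1.1 on the log2 scale. *Gbp2*, an interferon-induced GTPase, rose by 0.99. *Ly6a*, which encodes a surface protein of endothelial and other cells, rose by 0.67, with region values of 0.66, 0.63 and 0.71 in the cerebellum, striatum and prefrontal cortex. *Plac8* and *Ifi209* rose from very low levels, so that no fold is given for them. *Ifi209*, for example, was between 0 and 0.401 CPM in WT and between 0.224 and 1.65 CPM in KI libraries. *Gm4951*, an interferon-inducible GTPase, rose by 2.33, also from a low level of 0.0685 to 1.35 CPM in WT libraries, so that its fold is imprecise. These genes were called again in all 19 fits without 1 library and with the animal block.

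Genes of MHC class I presentation rose as well, most of them by less than the interferon effectors. Of 19 tested, 9 rose and 0 fell, and 6 of the 9 passed on the average alone, with a median of 0.39 for the list. Over all tested genes, 0.837% were higher and 0.517% lower. *Tap1*, which carries peptides into the endoplasmic reticulum, was 7.37, 6.43, 6.55 and 5.26 CPM in KI and 2.63, 2.49 and 4.12 CPM in WT cerebellum. In the striatum it was 7.91, 6.60 and 9.58 against 4.54, 3.64 and 2.47, and in the prefrontal cortex 8.06, 5.84 and 7.64 against 3.90, 3.05 and 5.66. The genotypes were separate in each region, with an average log2 fold change of 1.00 (standard error 0.154, edgeR adjusted p = 0.00143). The immunoproteasome subunit genes *Psmb9* and *Psmb10* rose by 0.97 and 0.41, the proteasome activator gene *Psme1* by 0.37, the class I gene *H2-T23* by 0.67 and *Tapbpl*, whose product edits peptides on class I molecules, by 0.35. *Psmb9* lost its call with the animal block, which left 8 of the 9. *H2-T23*, *Psme1* and *Tapbpl* were not called without the 3 libraries with high *Th* or *Ttr*, and *Tapbpl* was called in 12 of the 19 fits. These 5 genes and the folding factors below were named after their values were seen. *B2m*, the light chain of class I molecules, rose by 1.08 and *H2-K1*, a heavy chain, by 1.12, and regions also called these. The folding factors of the same list had values near 0, with *Calr* at 0.05, *Canx* at -0.02 and *Pdia3* at 0.02. Class I heavy chain genes are near-identical in part, so reads could be divided among them by the counting.

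Microglia express many of these genes, and their markers moved with genotype in the cerebellum. Of 18 microglia markers, 5 rose and 0 fell on the average, where 0.837% of all tested genes were higher and 0.517% lower. Cerebellar, striatal and prefrontal medians of the markers were 0.89, 0.07 and -0.09. Their summed level was 354 to 459 CPM in KI and 218 to 228 CPM in WT cerebellum, 1080 to 1260 against 1020 to 1120 CPM in the striatum, and 841 to 1060 against 937 to 978 CPM in the prefrontal cortex. In limma, 2 of the 18 were called, both with and without the animal block. In the striatum and prefrontal cortex, where the marker sums of the genotypes overlapped, the interferon list had medians of 1.71 and 1.08. The MHC list had medians of 0.50 and 0.17 there. The part of microglia in the interferon and MHC values was not tested in any region.

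**Figure D2:**
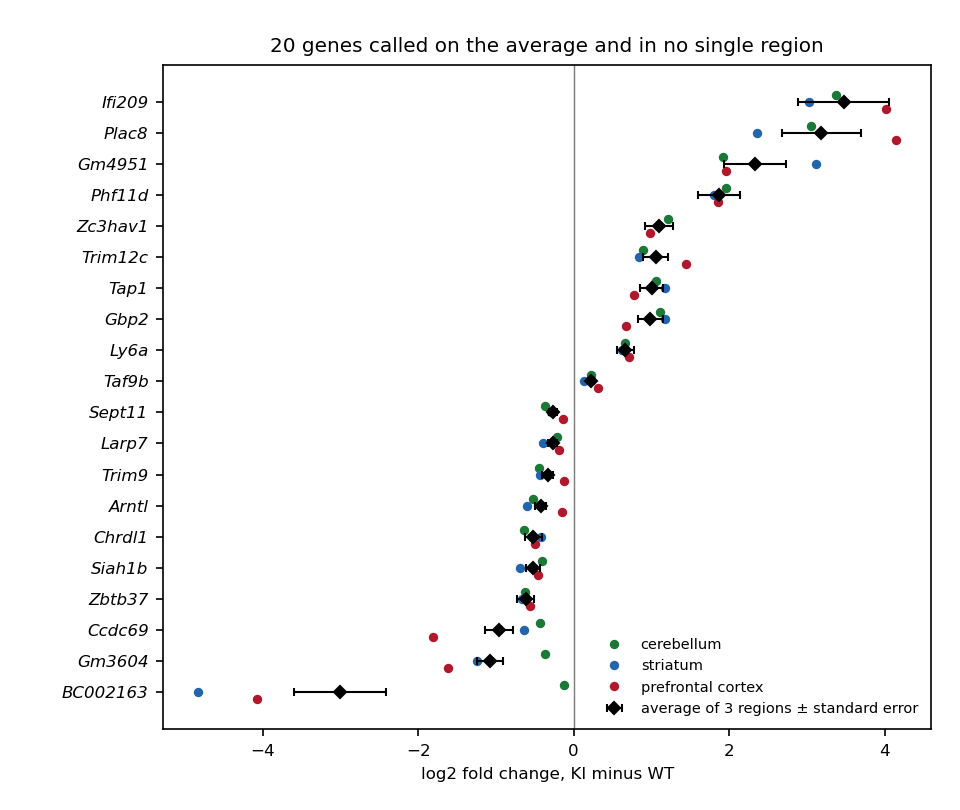
Log2 fold change of the 10 genes with the smallest p in each direction among those called on the average alone, with the average and its standard error (black) and the value in each region (coloured). The regions lie close together for genes such as *Ly6a*, *Taf9b*, *Zbtb37* and *Siah1b*, while *BC002163*, *Gm3604* and *Ccdc69* are spread.

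Among the small differences called on the average alone, *Taf9b* had the smallest p. It encodes a TBP-associated factor, a close relative of TAF9 that occurs in TFIID and SAGA complexes, and it lies on chromosome X (GRCm38, chrX:106206883-106221158). Its level was 59.7, 57.4, 57.7 and 58.3 CPM in KI and 52.2, 44.9 and 52.5 CPM in WT cerebellum. In the striatum it was 78.7, 76.7 and 80.2 against 70.1, 70.7 and 73.8 CPM, and in the prefrontal cortex 64.4, 67.8 and 67.8 against 54.7, 55.0 and 51.3 CPM. The genotypes did not overlap in any region. The average log2 fold change was 0.22 (standard error 0.0372, edgeR adjusted p = 0.00296), and no region reached the threshold by itself. *Taf9b* was called with sex as a covariate, with the animal block and in all 19 fits without 1 library.

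*Apmap*, which encodes a membrane protein first described in fat cells (chr2:150583080-150608567), differed by less still and was as regular. It and *Prps1* were named after their values were seen. *Apmap* was 132, 132, 128 and 125 CPM in KI and 106, 116 and 117 CPM in WT cerebellum, 118, 111 and 112 against 100, 99.3 and 102 CPM in the striatum, and 111, 118 and 117 against 104, 104 and 103 CPM in the prefrontal cortex. No KI library reached down to a WT library of its region. Its average log2 fold change was 0.18 (standard error 0.0315, edgeR adjusted p = 0.00545), near the smallest among the called genes, 0.17 for *Pex19*. *Prps1*, which makes phosphoribosyl pyrophosphate for nucleotide synthesis (chrX:140456613-140476140), was 165, 158, 144 and 135 CPM in KI against 128, 124 and 125 CPM in WT cerebellum. It was 162, 173 and 157 against 138, 142 and 156 CPM in the striatum and 194, 184 and 177 against 164, 147 and 156 CPM in the prefrontal cortex. The genotypes were again separate in each region, with the closest pair, 157 and 156 CPM, in the striatum. The average was 0.23 (standard error 0.0438, edgeR adjusted p = 0.0105).

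The other small higher genes were named after their values were seen. Of the 22 higher genes under 1.5 times and called on the average alone, 7 were called in all 19 fits without 1 library and with the animal block. Besides *Taf9b*, *Apmap*, *Prps1*, *Psmb10* and *Psme1* these were *Mthfd1l*, a mitochondrial enzyme of one-carbon metabolism, at 0.49, and *Rpl41*, a short ribosomal protein gene, at 0.31. *Rpl41* and *Psme1* lost the call without the 3 libraries with high *Th* or *Ttr*. *Rpl41* overlapped between genotypes in the prefrontal cortex, where KI libraries had 125, 135 and 99.7 CPM and WT libraries 102, 90.8 and 89.8 CPM. Less stable members included *Akr1a1*, an aldehyde reductase gene, at 0.20 and called in 13 of the 19 fits, *Phb*, a prohibitin gene of the inner mitochondrial membrane, at 0.26 and called in 12, and *Pex19*, a peroxisome biogenesis gene called in 3. *Tma7*, a short gene linked to translation, rose by 0.40 with separate genotypes in each region, and the striatum alone also called it.

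**Figure D3:**
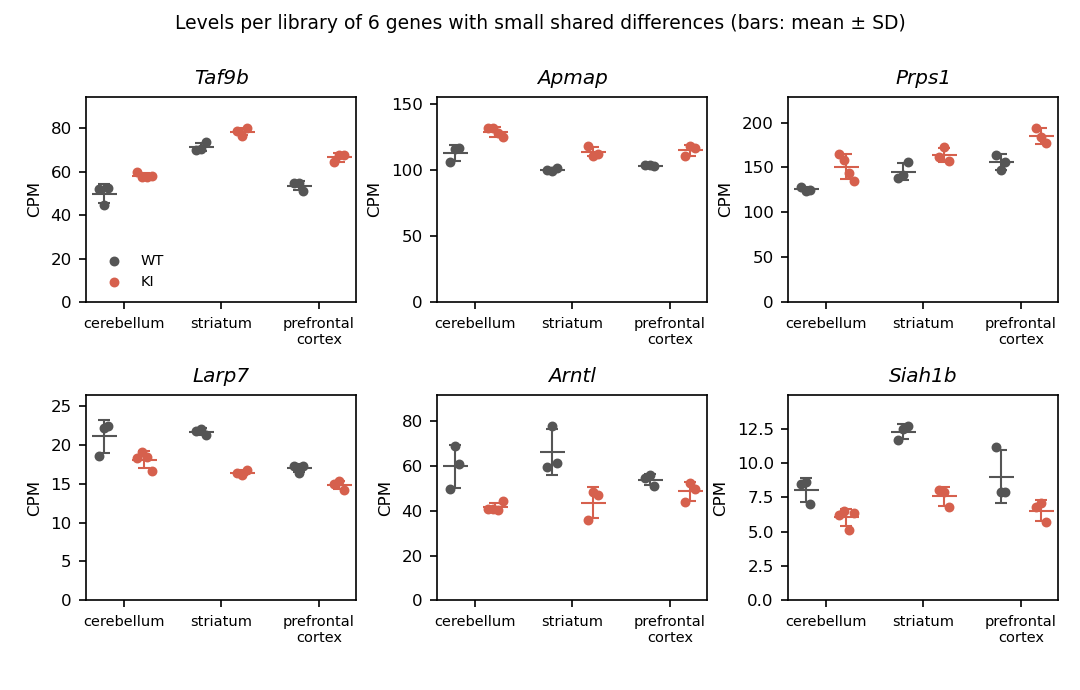
CPM per library (y axis) of 3 higher and 3 lower genes with small differences, by region and genotype, with the mean and SD of each group. KI points (red) lie above WT points (grey) in every region for *Taf9b*, *Apmap* and *Prps1* and below them for *Siah1b*, while *Arntl* and *Larp7* overlap in 1 region each.

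Among lower genes called on the average alone, *Arntl* had the smallest p of those with a small difference. It encodes BMAL1, the partner of CLOCK in the circadian oscillator (chr7:113207465-113314126). Cerebellar KI libraries had 40.8, 40.9, 40.4 and 44.3 CPM and WT libraries 49.9, 69.1 and 60.7 CPM. In the striatum the values were 35.8, 48.2 and 46.9 against 59.4, 77.8 and 61.1 CPM, and in the prefrontal cortex 44.1, 52.3 and 49.5 against 54.7, 56.0 and 51.0 CPM. The genotypes were separate in the cerebellum and striatum and overlapped in the prefrontal cortex. The average log2 fold change was -0.42 (standard error 0.0743, edgeR adjusted p = 0.00487). Looked up afterwards, 12 other genes of the oscillator or its output had averages between -0.67 (*Npas2*) and 0.29 (*Per2*), and 0 of them passed on the average in edgeR's quasi-likelihood test, in which their lowest adjusted p was 0.273 and that of *Clock* was 0.815.

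*Larp7*, which holds the 7SK RNA in the particle that keeps the elongation factor P-TEFb inactive (chr3:127536714-127553349), was 16.4, 16.1 and 16.8 CPM in KI and 21.8, 22.0 and 21.2 CPM in WT striatum. In the prefrontal cortex it was 15.0, 15.3 and 14.2 against 17.3, 16.4 and 17.3 CPM, and in the cerebellum 18.3, 19.1, 18.4 and 16.6 against 18.6, 22.2 and 22.4 CPM. Only the cerebellum, through the WT library at 18.6 CPM, overlapped. The average was -0.27 (standard error 0.0531, edgeR adjusted p = 0.0130). *Siah1b*, a ubiquitin ligase gene on chromosome X, had all KI libraries below all WT libraries in each region, at 6.25, 6.49, 5.15 and 6.35 against 8.48, 8.65 and 7.04 CPM in the cerebellum, 8.04, 7.92 and 6.81 against 11.7, 12.5 and 12.7 CPM in the striatum, and 6.79, 7.12 and 5.71 against 11.2, 7.87 and 7.89 CPM in the prefrontal cortex. It fell by 0.52 on the log2 scale (standard error 0.0918, edgeR adjusted p = 0.00507).

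*Zbtb37*, which encodes a zinc finger protein, was also separate in each region and fell by 0.62, with region values of -0.63, -0.67 and -0.56 in the cerebellum, striatum and prefrontal cortex. *Trim9*, a neuronal ubiquitin ligase gene, fell by 0.33 and *Sept11*, a septin gene of the cytoskeleton, by 0.26, both with the value of the prefrontal cortex closest to 0. *Chrdl1*, which encodes a secreted antagonist of bone morphogenetic proteins made by astrocytes, fell by 0.52, with region values of -0.64, -0.42 and -0.50. Of the 34 lower genes under 1.5 times and called on the average alone, 7 were called in all 19 fits and with the animal block, namely *Arntl*, *Larp7*, *Siah1b*, *Trim9*, *Sept11*, *Chrdl1* and the noncoding gene *Rab10os*. *Chrdl1* and *Rab10os* were not called with sex as a covariate, nor without the 3 libraries. *Nrxn3*, a presynaptic adhesion gene, at -0.24, and *Med23*, a mediator subunit gene, at -0.26, were called in 5 and 2 of the 19 fits.

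Other lower genes with small p-values were ones that a region had called as well. *Rflnb*, a filamin-interacting gene, was 23.6, 19.3, 19.6 and 18 CPM in KI and 33.9, 32.5 and 25.6 CPM in WT cerebellum, 9.12, 7.77 and 11.7 against 12.6, 17.7 and 12.8 CPM in the striatum, and 6.24, 5.84 and 7.16 against 13.4, 11.5 and 12.7 CPM in the prefrontal cortex. The genotypes were separate in each region, and the average was -0.72 (standard error 0.0976, edgeR adjusted p = 0.000346). *Anks1b*, a postsynaptic scaffold gene, fell by 0.42, with striatal and prefrontal values of -0.77 and -0.09. *Malat1*, an abundant nuclear noncoding RNA, fell by 0.50, with -0.75, -0.49 and -0.27 in the cerebellum, striatum and prefrontal cortex. *Malat1* was named after its values were seen.

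For some called genes the average described no region. *BC002163*, annotated as a processed copy of a gene of the respiratory chain, was 0.733 to 0.946 CPM in KI striatum and 0.824 to 1.65 CPM in KI prefrontal cortex. WT libraries 1, 2 and 3 had 1.14, 49.9 and 24.1 CPM in the striatum and 1.1, 43.1 and 21.5 CPM in the prefrontal cortex, and all 7 cerebellar libraries lay between 21.1 and 50.1 CPM. The value thus varied between WT numbers and not only between genotypes, and with the animal block the gene was not called. *Tmem181c-ps*, a pseudogene on chromosome 17, was at 0 to 0.132 CPM in the 6 KI forebrain libraries and at 0 CPM in WT library 3 of both forebrain regions, but between 1.77 and 2.42 CPM in KI cerebellum. *Gm8210*, a pseudogene, was at 0 to 0.0661 CPM in KI forebrain and 0.665 to 1.34 CPM in KI cerebellum, against 1.09 to 3.47 CPM in WT libraries, and its difference between regions passed (edgeR adjusted p = 0.0351). Reads of such copies can also be assigned to their parent genes. *Gm3604* and *Ccdc69*, with region values from -0.37 to -1.62 and from -0.44 to -1.81, were lowest in the prefrontal cortex, and the call of *Ccdc69* was lost with the animal block. In that region *Ccdc69* had only 0.15 to 0.29 CPM in KI and 0.548 to 0.882 CPM in WT libraries, so its fold there is imprecise.

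*Kcnj10*, the inward rectifier potassium channel of astrocytes, fell by 1.46, with 35.2, 23.7 and 30.3 CPM in KI against 101, 106 and 102 CPM in WT striatum, and 21.9, 37.0 and 39.3 against 84.9, 163 and 172 CPM in the prefrontal cortex. In the cerebellum the genotypes overlapped, at 110, 124, 92.5 and 36.9 against 113, 164 and 107 CPM. *Serpina3n*, a gene of reactive astrocytes, was called on the average alone, with the highest values in single libraries. Cerebellum KI libraries had 52.6, 44.3, 4.48 and 5.08 CPM, and KI library 2 had 44.6 CPM in the striatum and 74.0 CPM in the prefrontal cortex while the other KI libraries there had 7.60 to 19.7 CPM. It was called in 13 of 19 fits and not in limma, with or without the animal block. Of 15 astrocyte markers, these were the only ones called, 1 in each direction. *Th* was called lower at -2.73, a value that the prefrontal cortex WT library 3 enters with 171 CPM. It was called in 14 of the 19 fits and without the 3 libraries, but not in limma, with or without the animal block. Of 5 olfactory bulb markers it was the only called gene. Over all tested genes, 0.837% were called higher and 0.517% lower.

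The test of whether the KI effect differed between regions called 4 genes (0.0238% of those tested). Of the 16841 tested genes, 1047 had an unadjusted p under 0.05, where a share of 0.05 would without any difference. Besides *Gm8210*, *C1qa* was called on the average as well. *C1qa*, a complement gene of microglia, was 21.2, 18.6, 16.2 and 16.3 CPM in KI against 7.13, 7.21 and 8.01 CPM in WT cerebellum. In the striatum it was 44.3, 36.7 and 54.1 against 38.9, 34.1 and 35.1 CPM, and in the prefrontal cortex 35.8, 31.7 and 40.5 against 40.3, 36.0 and 39.0 CPM. The cerebellum alone was separate, and the average log2 fold change of 0.50 (standard error 0.0793) combined values of 1.28, 0.32 and -0.10 (edgeR adjusted p of the region difference = 0.0351). Among the 113 genes called on the average alone, 12 had an unadjusted p under 0.05 in the same test, beside the 1047 of 16841 over all tested genes. A p above the threshold in this test does not show that the regions were alike.

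*Polr2a*, which encodes the catalytic subunit of RNA polymerase II, was among the 5 genes with the smallest p in the higher direction. Its level was 116, 110, 115 and 134 CPM in KI and 59.6, 57.7 and 65.1 CPM in WT cerebellum, 64.1, 79.6 and 67.4 against 40.5, 33.5 and 35.9 CPM in the striatum, and 73.3, 88 and 72.6 against 44.3, 37.2 and 47.1 CPM in the prefrontal cortex. The genotypes were separate in each region. The average log2 fold change was 0.92 (standard error 0.0648, edgeR adjusted p = 2.33e-07). A two-sided exact permutation test within regions gave p = 7.143e-05, the smallest that its 14000 arrangements allow. That test shuffled each region by itself and did not keep same-numbered forebrain libraries together, so its p is too small if these share an animal. *Polr2a* was also called with the animal block. The other 12 subunits of the enzyme were not called, and the list of 13 had a median of 0.05. These are too few to set apart from the share of all tested genes, 0.837% higher and 0.517% lower.

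*Tbp* itself (chr17:15499888-15528379) was 52.2, 54.3, 48.5 and 56.6 CPM in KI and 60.9, 52.5 and 62.0 CPM in WT cerebellum, 38.1, 42.0 and 42.3 against 39.5, 49.6 and 44.0 CPM in the striatum, and 33.2, 35.9 and 32.0 against 36.6, 33.4 and 42.1 CPM in the prefrontal cortex. The genotypes overlapped in each region. The mean log2 difference was -0.14, with p = 0.0238 in a two-sided exact permutation test within regions, and edgeR's adjusted p of 0.347 did not pass. The permutation again shuffled each region by itself, without regard to forebrain libraries that may share an animal. The counts do not separate the mutant from the WT allele. Of 36 tested genes of TFIID and the general transcription factors, 0 passed in either direction in edgeR's quasi-likelihood test, 18 had a value above 0, and the median was 0.00, while DESeq2 called 1 higher. A list of this size cannot be set apart from the share of all tested genes, 0.837% higher and 0.517% lower. *Taf9b* was not on that list. *Inpp5a*, an IP3 phosphatase gene that the cerebellum calls, had an average of -0.24 (edgeR adjusted p = 0.0908), with cerebellar, striatal and prefrontal values of -0.51, -0.12 and -0.10. *Inpp5a* passed on the average without cerebellum KI library 1 and in DESeq2.

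The other gene lists held few or no called members, and their medians were small. For ribosomal proteins 34 of 38 values were above 0 with a median of 0.08, for the respiratory chain 31 of 35 with 0.08, for chaperones and the unfolded protein response 26 of 30 with 0.07, and for proteasome subunits 23 of 27 with 0.03, where all tested genes had a median of -0.00. The ribosomal list left out 3 called ribosomal protein genes, *Rpl41*, *Rps28* (0.34) and *Rpl29* (1.29), the last 2 named after their values were seen. None of the genes on these lists passed in edgeR's quasi-likelihood test, which cannot be set apart from the share of all tested genes, 0.837% higher and 0.517% lower. The chaperone gene *Hsp90aa1* was at 0.20 (edgeR adjusted p = 0.0885). With DESeq2 1 ribosomal protein and 1 chaperone gene were called higher. Lower medians were seen for postsynaptic density and glutamate receptor genes, with 4 of 25 values above 0, and for calcium and IP3 signalling genes, with 9 of 30, at -0.12 and -0.16. Of these lists 3 genes fell, where 0.517% of all tested genes did. *Grm4*, a presynaptic glutamate receptor gene, was at -0.49 and *Plcb3*, a phospholipase C gene, at -0.36, both called in the cerebellum too. *Plcb3* averaged 42 CPM in KI and 77.9 CPM in WT cerebellum, 20.3 and 22.1 CPM in the striatum and 19.4 and 20.3 CPM in the prefrontal cortex, and it lost its call with the animal block. *Atp2b2*, a plasma membrane calcium pump gene with a value of -0.38, passed on the average alone and was called in 8 of 19 fits. *Itpr1*, the IP3 receptor of Purkinje cells, had a value of -0.35 that did not pass.

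No member passed in edgeR's test among 25 synaptic vesicle genes (median -0.03), 22 immediate early genes (-0.17), 22 cholesterol synthesis genes (-0.07) or 25 genes of RNA polymerases I and III and their TBP partners (-0.02). Lists this short cannot be set apart from the share of all tested genes, 0.837% higher and 0.517% lower. The median of the immediate early genes was 0.05 with sex as a covariate, and that of the vesicle genes was 0.00 after correction for GC content and length. Of 28 genes of elongation and pausing, *Larp7* and *Med23* fell, where 0.517% of all tested genes did, and the list's median was 0.03. *Med23* lost its call with the animal block. Markers of neurons, oligodendrocytes, their precursors, endothelial cells with pericytes, choroid plexus, blood, cerebellum, striatum, cortex and sex had 0 called members on the average in edgeR's quasi-likelihood test. These marker lists, too, are too short to set apart from the share of all tested genes.

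**Figure D4:**
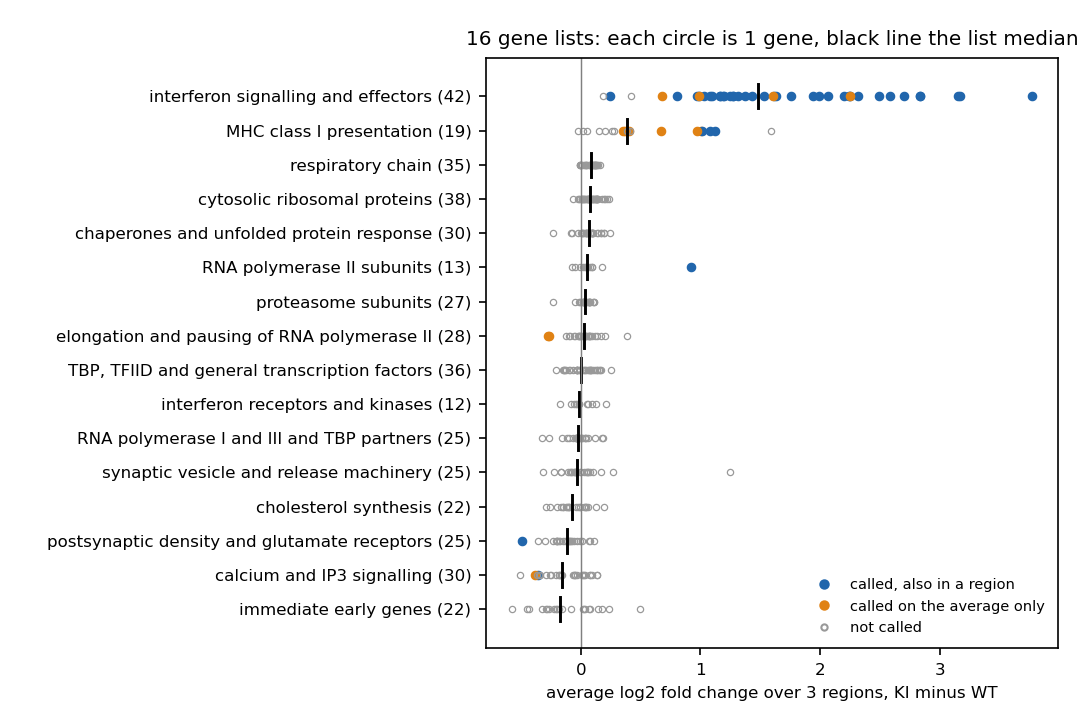
Average log2 fold change over 3 regions (x axis) of each gene in 16 lists, with the number of tested genes in brackets and the list median as a black line. The interferon list lies to the right at a median of 1.48, the MHC class I list follows at 0.39 with 6 genes called on the average alone (orange), and the remaining medians lie between -0.17 and 0.08.

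The edited allele is on chromosome 17, where 20 of 812 tested genes were called, 13 higher and 7 lower, and 12 of the 20 with the animal block. The share, 2.46%, was the highest of the chromosomes, ahead of chromosome 11 with 2.02%. Within 5 Mb of *Tbp*, 0 of 50 tested genes were called by edgeR's quasi-likelihood test. These are too few to set apart from the share of all tested genes, 0.837% higher and 0.517% lower. Between 5 and 10 Mb away, 6 of 144 (4.17%) were called, and 4 of these, *Zfp758*, *Tmem181c-ps*, *Dynlt1b* and *Spsb3*, lost the call with the animal block. *Tagap*, a GTPase-activating protein gene of immune cells 7.56 Mb from *Tbp*, rose by 1.37, with 0.07 in the cerebellum and 2.44 in the prefrontal cortex. *E4f1*, a transcription factor gene at 8.92 Mb, fell by 0.34 with separate genotypes in each region. Farther away the chromosome carries the MHC class I region, with *H2-K1*, *Psmb9*, *Tap1*, *Psmb8*, *H2-Q7* and *H2-T23* between 18.5 and 20.5 Mb from *Tbp*.

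Promoter sequence was compared because TBP binds the TATA box and interferon factors bind GAAA repeats. RefSeq windows of 300 bases (GRCm38.p6, 250 bases before to 50 after the start of the gene) were matched by symbol, and genes with a single window were used, 9915 of the tested genes. The interferon element was read as GAAA, any 2 bases, and GAAA again, on either strand, overlapping matches counted once per gene. It occurred in 35 of 97 called higher genes (36.1%), 1 of 43 called lower genes (2.33%) and 2.96% of all tested genes. Of the higher genes called on the average alone, 8 of 42 (19.0%) had it, namely 7 of 27 that differed by at least 1.5 times and 1 of 15 that differed by less. The hexamer TATAAA on either strand was found in 20.6% of higher, 4.65% of lower and 7.37% of all tested genes, and on the gene strand 45 to 15 bases before the start in 5 of 97 higher, 0 of 43 lower and 1.54% of all tested genes. A match is a description of the letters and not a binding site shown here.

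The windows of *Trim12c* (chr7:104353300-104353599, minus strand) and *Gbp2* (chr3:142620413-142620712, plus strand) are shown for the interferon element and that of *Polr2a* (chr11:69758584-69758883, minus strand) for the TATA hexamer, because these genes, named above for their p-values, held one. Each is written on its gene's strand with the motif in capitals, which for *Trim12c* and *Gbp2* is the element read from the opposite strand. The motif begins 29 bases before the start in *Trim12c*, 59 in *Gbp2* and 33 in *Polr2a*. The windows of *Irf9*, *Oasl2*, *Phf11d*, *Tap1*, *Zc3hav1*, *Ifi209* and *Plac8*, also named above, held no interferon element.
Trim12c: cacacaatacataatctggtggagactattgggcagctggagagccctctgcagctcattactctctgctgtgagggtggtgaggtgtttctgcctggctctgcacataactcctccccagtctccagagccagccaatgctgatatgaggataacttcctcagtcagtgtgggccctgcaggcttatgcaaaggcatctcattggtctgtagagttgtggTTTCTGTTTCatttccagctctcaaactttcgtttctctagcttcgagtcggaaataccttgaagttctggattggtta
Gbp2: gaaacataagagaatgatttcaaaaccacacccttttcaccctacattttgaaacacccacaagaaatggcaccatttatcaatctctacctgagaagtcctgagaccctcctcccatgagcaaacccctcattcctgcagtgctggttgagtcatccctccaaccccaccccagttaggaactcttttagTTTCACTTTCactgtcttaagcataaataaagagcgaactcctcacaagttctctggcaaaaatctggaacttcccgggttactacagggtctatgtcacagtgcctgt
Polr2a: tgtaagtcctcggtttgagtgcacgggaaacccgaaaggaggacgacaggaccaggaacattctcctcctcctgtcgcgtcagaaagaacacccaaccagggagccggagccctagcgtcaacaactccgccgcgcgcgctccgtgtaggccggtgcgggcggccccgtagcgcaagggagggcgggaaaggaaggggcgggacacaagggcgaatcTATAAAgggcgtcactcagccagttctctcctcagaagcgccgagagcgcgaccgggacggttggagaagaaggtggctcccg

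**Figure D5:**
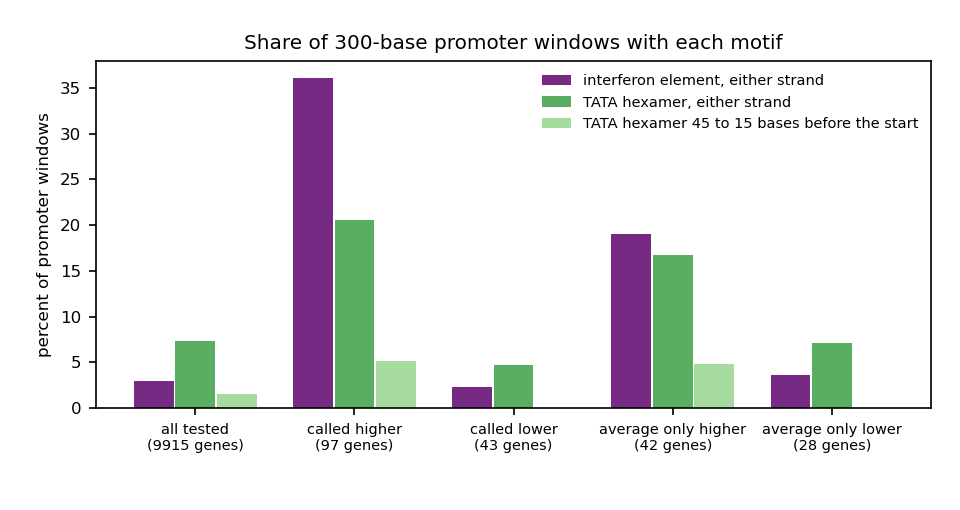
Percent of promoter windows (y axis, from 0) with the interferon element, a TATA hexamer anywhere, or a TATA hexamer at the usual distance from the start, by group of genes. The interferon element stands at 36.1% in called higher genes and 19.0% in higher genes called on the average alone, against 2.96% of all tested genes, and lower genes are close to the latter.

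Gene properties differed between the directions. Genes were split into 5 groups of similar size by exonic GC content, and the highest group, from 55.7%, held 30 of the 87 lower genes and 17 of the 141 higher genes, and 19 of the 56 lower genes called on the average alone. Split likewise by exon length, the shortest group held 47 higher and 12 lower genes and the longest group 11 and 20. After each library was corrected for smooth trends with GC content and length, 161 genes were higher and 70 lower, and 35 of the 56 lower genes called on the average alone remained called, against 53 of the 57 higher ones. *Atp2b2* and *Spsb3* were among those lost. The part of GC content and length in single calls was not tested.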

How the data were processed

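RNA of dissected cerebellum, striatum and prefrontal cortex was sequenced by the authors from SMART-Seq v4 cDNA with Nextera XT, which does not keep strand, so overlapping genes on opposite strands cannot be told apart. The authors deposited whole-number read counts per Ensembl gene for 19 libraries, and a table of the same counts divided by size factors was not used. Per the submitters' processing notes, bcl2fastq 2.17.1.14, STAR 2.5.2b, HTSeq, DESeq2 1.10.1 and GRCm38.p3 were involved, while the study's methods name Cufflinks and Cuffdiff. The strand setting and annotation of the counting are not given in the sources used here.

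Genes were filtered with filterByExpr and scaled by TMM, and 6 means of region and genotype were fitted in edgeR 4.0.16 (quasi-likelihood test, R 4.3.3, 13 residual degrees of freedom). The average was the mean of the 3 within-region contrasts, with Benjamini-Hochberg adjustment over 16841 genes and a threshold of 0.05. Small means an average change under 1.5 times. Symbols and coordinates came from GENCODE release M21 (GRCm38), which named 40254 genes. Genes were named by p-value rank among those called on the average alone or on the average, by rank within each list, as *Tbp*, *Polr2a* or *Inpp5a*, by the test of region difference, or by nearness to *Tbp*, and 2 genes that met the rule are not reported here. Members and lists were chosen with earlier results of these data known. Alternatives used limma 3.58.1, DESeq2 1.42.0, other filters and left-out libraries, and 3 were chosen after seeing the data: the animal block, the correction for GC content and length, and the fit without 3 libraries. Scripts were tested on simulated data.

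For the pairing check, deviations from group means were correlated. Same-numbered striatum and prefrontal cortex libraries correlated at 0.255 to 0.369 in KI and 0.161 to 0.300 in WT mice, while same-numbered pairs with the cerebellum, or of KI with WT, were not all above 0.1. Between KI cerebellum and KI striatum, same-numbered pairs were at 0.061 to 0.164 and the others at -0.144 to 0.0311. For WT cerebellum with striatum, and for cerebellum with prefrontal cortex, the ranges of same-numbered and other pairs overlapped. The animal block (limma duplicateCorrelation, correlation 0.170) rests on the pattern of the forebrain pairs and not on a label. P-values measure the spread between these libraries.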

Additional observations from a re-analysis of the deposited data

Results flagged for a closer look

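Among 49 named genes, 4 had 1 cerebellar KI library far from the other 3 by Dixon's ratio, where chance gives about 1 group in 20. *Phf11d* was 1.86 CPM in cerebellum KI library 1 against 2.72 to 2.88 CPM in the others. *Plac8* was 0.728 CPM in library 3 against 0.333 to 0.363 CPM, and *Arntl* was 44.3 CPM in library 4 against 40.4 to 40.9 CPM. In library 2, *Tagap* was 12.8 CPM against 5.77 to 6.02 CPM. Both *Gm8210* and *C1qa* were called on the average although their KI effect differed between regions in edgeR's quasi-likelihood test, each at an adjusted p of 0.0351.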

How the results depend on the processing

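The averages of the 228 called genes, *Tbp* and *Inpp5a* kept their sign in the alternatives run. In contrast, the medians of 6 of 16 gene lists and 8 of 13 marker lists changed sign under at least 1 of them. Among these, the microglia median was -0.01 without the cerebellum, the elongation median -0.02 without the prefrontal cortex and the immediate early median 0.05 with sex. The counts of higher and lower genes, 141 and 87, became 231 and 209 with DESeq2, 133 and 56 with sex as a covariate, 64 and 17 without the cerebellum and 74 and 25 without the striatum. Leaving out 1 library gave 117 to 156 higher and 48 to 99 lower genes, with 48 without cerebellum WT 2, 54 without cerebellum WT 3, 53 without striatum KI 3 and 56 without striatum WT 2. For genes called on the average alone, 57 and 56, DESeq2 gave 87 and 101, sex as a covariate 44 and 27, the fit without the cerebellum 33 and 11, and that without the striatum 20 and 5. A minimum of 10 counts in every library left 31 higher ones, and limma-voom 32 lower ones. The GC content and length correction left 34 lower ones, and the fit without 3 libraries 37. Leaving out 1 library gave 46 to 67 higher and 27 to 61 lower ones, the latter at 27 and 31 without cerebellum WT 2 and 3, 28 without striatum KI 3, 34 without striatum WT 2 or 3, 37 without prefrontal cortex KI 2 and 36 without prefrontal cortex WT 3. The 4 genes that differed between regions became 86 with DESeq2, 2 with limma-voom or sex, 1 without 3 libraries and 1 to 6 with 1 library left out. *Inpp5a* passed with DESeq2 and without cerebellum KI 1. The causes were not tested.

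With the replicate number as a block there were 153 higher and 91 lower genes and 1 region difference. With the number as a candidate animal block there were 117 and 49, of which 39 and 18 on the average alone, and 2 region differences. Means over the regions of libraries with the same number, without cerebellum KI library 4, gave 65 and 12 in an unpaired limma fit of 3 against 3. These means merge cerebellum and forebrain libraries that did not all match in sex. The animal block of striatum and prefrontal cortex gave 116 and 45, with 39 and 15 on the average alone, and 1 region difference.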
